A study of Mus musculus with 2 samples.

Results

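The genes described here are 9 transcription factors that act in the hemangioblast, the mesodermal precursor of blood and endothelium: Etv2, Fli1, Erg, Tal1, Lyl1, Lmo2, Gata2, Hhex and Runx1. They were taken by symbol from the array's probe-to-gene annotation, which held a probe for 8 of the 9, out of 16444 named genes. Hhex, under this or an older symbol, had no annotated probe and was not analysed here. Each of the other 8 had 1 probe, so no second probe of the same gene checks its value, and all 8 were above background on both arrays.

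Total RNA was measured on 2 one-colour mouse oligonucleotide arrays, 1 per group. The gene-trapped sample came from embryonic stem cells with both alleles of AU019823 interrupted by a gene trap, a cassette that disrupts a gene's transcripts. The revertant sample came from cells in which the disruption had been undone, and the labels call its genotype nearly wild-type. Both were cocultured with OP9, a bone marrow stromal line that favours blood formation, and sorted for surface Flk-1, the product of Kdr and a mark of early mesoderm. The labels give day 4.5 in the sample descriptions and 4 days of coculture in the protocol, for both groups. They give 300000 cells for the gene-trapped and 350000 for the revertant sample, and the different codes cl.3 and cl.4 with no meaning stated. Should the codes name separate clones, the effect of the clone and that of the trap cannot be told apart. With 1 array per group there is no replicate check, no error between cultures and no p-value, so every difference compares 2 libraries only.

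Etv2 is an ETS-family factor expressed for a short time in mesoderm that carries Flk-1, and mouse embryos without it form neither blood nor vessels. It is known to switch on Tal1, Lmo2, Gata2, Fli1 and other factors, after which Fli1 and Erg, also of the ETS family, keep endothelial and blood genes active while Etv2 itself is shut off. Tal1 and its relative Lyl1 are basic helix-loop-helix proteins that bind DNA with E proteins, bridged by Lmo2 and Ldb1 to GATA factors. Runx1 acts later, in the step by which endothelium gives rise to blood cells.

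Upstream sequences are shown for Etv2, the 1 member at least 2-fold higher in gene-trapped cells, and for Tal1, Lyl1 and Gata2, the members with the lowest differences, because ETS and GATA factors are known to act on several of these genes. Each is the 250 bases before an annotated start in RefSeq (build GRCm38.p6), 5′ to 3′ on the gene's strand, with the ETS core GGAA or its reverse complement in capitals. They lie at chr7:30635853-30636102 (minus strand) for Etv2, chr4:115056176-115056425 (plus strand) for the first start of Tal1, chr8:84701207-84701456 (plus strand) for Lyl1 and chr6:88193641-88193890 (plus strand) for the first start of Gata2. The Etv2 window lies within the gene's RefSeq span, downstream of another start. The end of the Lyl1 window also reaches into that gene's span, which begins at base 84701423.
Etv2: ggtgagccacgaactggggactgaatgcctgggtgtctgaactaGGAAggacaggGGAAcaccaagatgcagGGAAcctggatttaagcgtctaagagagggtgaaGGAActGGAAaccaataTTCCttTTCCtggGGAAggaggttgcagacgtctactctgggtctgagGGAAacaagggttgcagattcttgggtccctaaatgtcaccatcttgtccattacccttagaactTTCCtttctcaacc
Tal1: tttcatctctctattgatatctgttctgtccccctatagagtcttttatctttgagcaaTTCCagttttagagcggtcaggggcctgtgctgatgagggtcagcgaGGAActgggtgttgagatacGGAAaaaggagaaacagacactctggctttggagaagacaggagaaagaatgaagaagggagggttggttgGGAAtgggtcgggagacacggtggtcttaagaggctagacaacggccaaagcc
Lyl1: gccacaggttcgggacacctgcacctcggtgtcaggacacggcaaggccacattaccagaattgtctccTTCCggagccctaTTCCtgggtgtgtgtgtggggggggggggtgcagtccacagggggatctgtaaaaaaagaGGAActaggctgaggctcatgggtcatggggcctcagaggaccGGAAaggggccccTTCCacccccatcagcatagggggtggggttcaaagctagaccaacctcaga
Gata2: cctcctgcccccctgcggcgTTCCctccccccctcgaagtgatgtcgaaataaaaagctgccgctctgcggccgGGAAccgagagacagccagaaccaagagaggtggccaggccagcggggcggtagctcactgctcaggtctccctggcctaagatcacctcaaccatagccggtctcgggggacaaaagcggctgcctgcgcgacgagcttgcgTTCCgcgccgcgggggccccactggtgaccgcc
The Etv2 window held 10 matches to GGAA on both strands together, the Lyl1 window 5, the Tal1 window 4 and the Gata2 window 3. GGAA was present in 93.4% of 32851 windows of the same length, with a median of 3 matches, and 0.192% of the windows held 10 or more. The longer form CCGGAA, which contains GGAA, was present in 12.0% of windows. It was found 2 times in the Lyl1 window, starting 181 and 67 bases before the start, a number reached by 2.49% of windows, and 0 times in those of Etv2, Tal1 and Gata2. The GATA form AGATAA (9.99% of windows) was found 1 time in the Tal1 window, and the E-box form CANNTG (66.2%) 1 time in the Lyl1 window. TGATAA (7.94% of windows), CAGATG (14.4%) and TGTGGT (14.0%), searched on both strands as the others were, matched in none of these 4 windows. Such matches describe the letters and do not show binding.

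Signals are given as the spot median intensity, read by the scanner, and as the normalized log2 signal after background modelling and quantile normalization. A probe counted as above background when its spot median exceeded the mean of the blank spots by more than 2 SD, which is 22.3 on the gene-trapped and 25.0 on the revertant array. The median probe had a spot median of 38.6 on the gene-trapped and 47.5 on the revertant array, so equal normalized signals go with somewhat lower intensities on the gene-trapped array. Each difference is the gene-trapped less the revertant log2 signal, called only from 2-fold (1 on the log2 scale) upward in size. That size was reached upward by 0.334% and downward by 1.08% of the 13753 named genes above both limits. For comparison within brightness, these genes were put into 10 bins of equal number by mean log2 signal. Among bright control spots (2 kinds, 24 of each per array) the log2 ratio had an SD of 0.108 and 0.0989, which measures spots and not cultures.

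Etv2 was the 1 member of the 8 at least 2-fold apart, and it was higher in gene-trapped cells, a call made for 0.334% of all genes. In the main setting no other member reached 2-fold, in either direction. Its spot median was 1739 on the gene-trapped and 810.5 on the revertant array (probe M200001982). The spot was thus 78.1 times the background limit on the gene-trapped and 32.4 times on the revertant array. The normalized log2 signal was 10.91 in gene-trapped and 9.60 in revertant cells, a difference of 1.30 (2.47-fold). That difference stood at rank 18 from the top among the 13753 genes. Etv2 lay in the brightest bin, where 8 of 1376 genes were at least 2-fold higher, 4 had a difference at least as high, Etv2 included, and the central 90% ran from -0.81 to 0.63. In the authors' processed values Etv2 had an intensity of 1467 in gene-trapped and 518 in revertant cells, 2.83-fold higher.

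**Figure D1:**
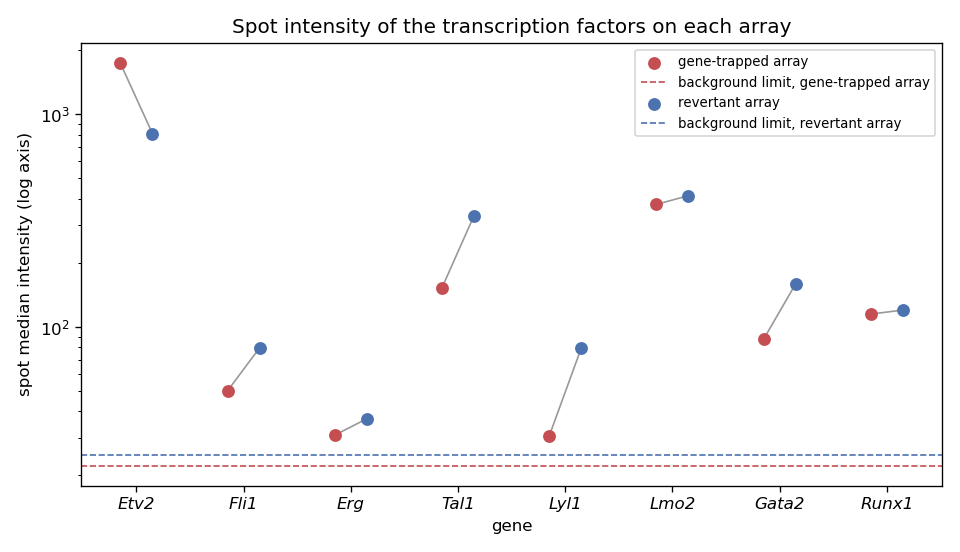
Spot median intensity (vertical log axis) of the 8 transcription factors on the gene-trapped (red) and revertant (blue) arrays, 1 point per array, with each array's background limit as a dashed line. Etv2 had 1739 on the gene-trapped and 810.5 on the revertant array, whereas the other 7 points are lower on the gene-trapped array, and Erg and Lyl1 lie nearest to the limit there.

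Fli1 and Erg, the other ETS members, were far from the 2-fold size of Etv2 in the main setting. Fli1, which takes part in the early blood and vessel programme and stays on in endothelium, had a spot median of 49.97 on the gene-trapped and 79.7 on the revertant array. Its log2 signals of 6.45 in gene-trapped and 6.68 in revertant cells differ by -0.22 (1.17-fold lower), inside the central 90% of genes of like brightness (-0.38 to 0.34). Erg, which maintains endothelial identity and blood stem cells, was dim, with 30.9 on the gene-trapped and 37.0 on the revertant array, or 1.39 and 1.48 times the limits. Its log2 signal was 6.03 in both, so no difference was detectable at this signal. The log2 difference of Etv2 exceeded that of Fli1 by 1.53 and that of Erg by 1.30. Both gaps kept their sign in 14 of 14 processing settings, of which 4, on the filter and on the choice among probes, cannot change the value of a member with 1 probe above background.

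Tal1 and Lyl1 were both lower in gene-trapped cells, by less than 2-fold in the main setting. Tal1, without which no blood forms, had a spot median of 152.4 on the gene-trapped and 333.6 on the revertant array. Its log2 signal was 7.68 in gene-trapped and 8.37 in revertant cells, a difference of -0.69 (1.61-fold lower). In its brightness bin, 71 of 1375 were as low or lower, and 35 were at least 2-fold lower.

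Lyl1, which overlaps with Tal1 in function in blood stem cells, had a spot median of 30.6 on the gene-trapped and 79.4 on the revertant array. These lie 9.76 blank SDs above the blank mean on the gene-trapped and 45.1 on the revertant array. The log2 signal was 6.02 in gene-trapped and 6.67 in revertant cells, a difference of -0.65 (1.57-fold lower). Among 1375 genes of like brightness only 6, Lyl1 included, had a difference as low, 0 were at least 2-fold apart, and the central 90% ran from -0.28 to 0.21. An offset of 50, added to every signal before the log, narrows the differences of dim genes such as this one. With the blank mean subtracted and no offset, the signals left were 10.4 on the gene-trapped and 57.0 on the revertant array, and in the authors' processed values Lyl1 was 4.19-fold lower (8.94 in gene-trapped and 37.5 in revertant cells). In those values 1 member, Etv2, was past 2-fold upward and 1, Lyl1, downward, where 2.01% and 4.02% of 14203 genes were so. The size of the Lyl1 difference therefore depends on how a signal near the blank level is treated. Its direction did not change in 13 other settings, of which the 4 on filter and probe choice cannot change it. Which of Tal1 and Lyl1 differed more changed with the setting, since Tal1 minus Lyl1 was -0.04 in the main setting and ran from -0.17 to 1.21.

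**Figure D2:**
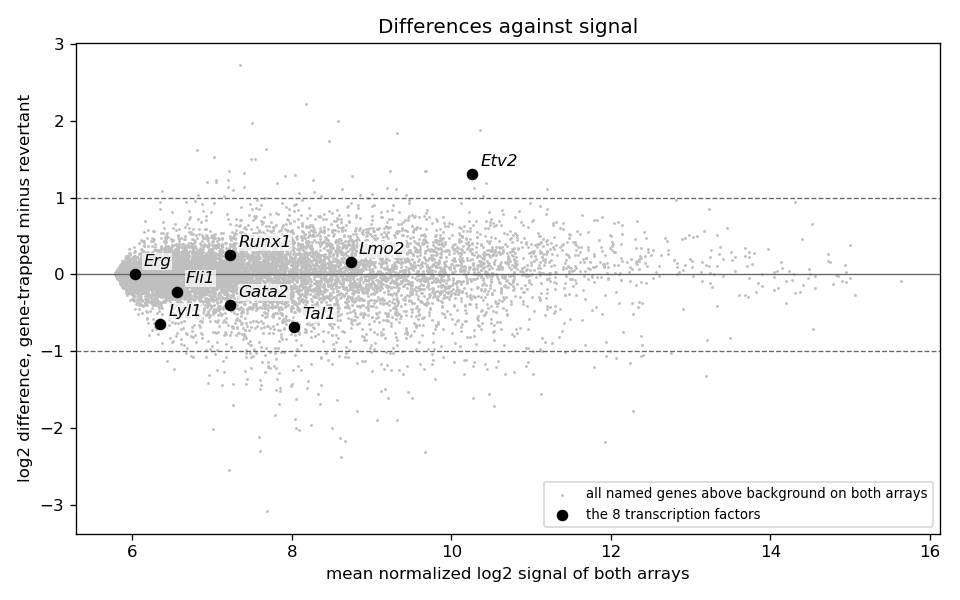
Log2 difference, gene-trapped minus revertant (vertical), against the mean normalized log2 signal of both arrays (horizontal), for all 13753 named genes above background on both arrays (grey) and the 8 transcription factors (black), with dashed lines at 2-fold. Etv2 lies above the 2-fold line at 1.30, and Lyl1 at -0.65 lies at the lower edge of the dim genes around it.

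Lmo2 and Gata2, which join Tal1 in 1 complex, differed in direction. Lmo2, the LIM-domain bridge of that complex, had a spot median of 376.3 on the gene-trapped and 414.2 on the revertant array. After normalization its log2 signal was 8.81 in gene-trapped and 8.66 in revertant cells, a difference of 0.16 (1.11-fold higher). It thus lay below the revertant value as an intensity and above it as a normalized signal, and the difference was 0.02 under median scaling, so it was not set apart from 0. Gata2, the zinc finger factor of early blood precursors, had 87.3 on the gene-trapped and 159.3 on the revertant array. Its log2 signal was 7.03 in gene-trapped and 7.43 in revertant cells, a difference of -0.40 (1.32-fold lower). Of 1375 genes of like brightness 151 were as low or lower, and the difference was -0.03 with the scanner's local background subtracted. At the Gata2 spot that background was itself 44.7 on the gene-trapped and 113.5 on the revertant array. Gata2 was lower relative to Lmo2 by 0.56 in the main setting, and this order held in 14 of 14 settings.

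Runx1 had a spot median of 114.8 on the gene-trapped and 119.9 on the revertant array. Its log2 signal was 7.35 in gene-trapped and 7.10 in revertant cells, a difference of 0.25 (1.19-fold higher), with 249 of 1375 genes of like brightness as high or higher. As for Lmo2, the intensity was slightly lower and the normalized signal higher in gene-trapped cells. Its difference ran from 0.11 to 0.38 over the other settings.

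Ordered by difference, the members ran Etv2 (1.30), Runx1 (0.25), Lmo2 (0.16), Erg (0.00), Fli1 (-0.22), Gata2 (-0.40), Lyl1 (-0.65) and Tal1 (-0.69). Apart from Etv2, neighbours in that order were separated by at most 0.25. The gap between Etv2 and Runx1 was 1.06 and ran from 0.90 to 1.17 over the settings. The gap between Etv2 and Tal1, the widest in the main setting, was 1.99 and ran from 1.64 to 2.36, while that between Etv2 and Lyl1 was 1.96 and ran from 1.59 to 3.57. Above 0 lay 4 members and below it 4, with a median of -0.11 against 0.01 for all 13753 genes. The median turned to 0.004 under 75th percentile scaling, which puts the median of all genes at 0.15.

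**Figure D3:**
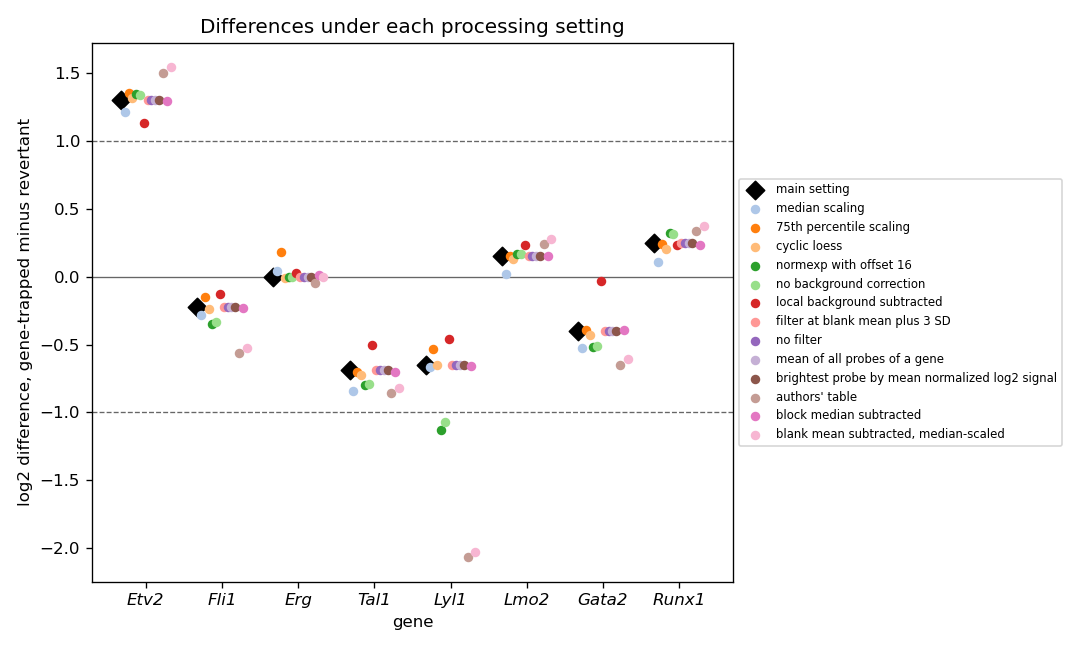
Log2 difference, gene-trapped minus revertant (vertical), of the 8 transcription factors under the main setting (black diamonds) and 13 alternatives (coloured points), with dashed lines at 2-fold. Etv2 stays between 1.13 and 1.54, Lyl1 spreads from -2.07 to -0.46, and the points of Erg lie on both sides of 0.

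Over all 13753 genes 53.3% lay above 0 and 46.6% below, which is the share to set beside the lists. Genes reported upstream of Etv2 had small differences. Of 15 with a probe, all above background on both arrays, 10 lay above 0 and 0 were 2-fold apart, with a median of 0.21, which was 0.04 with the local background subtracted. Smad1, which carries BMP signals, had a log2 difference of 0.53 and Mesp1, an early mesoderm factor, 0.51. The ligand and receptor that are known to raise Etv2 went the other way, with Vegfa at -0.77 (83.8 on the gene-trapped and 210.7 on the revertant array) and -1.19 in the authors' processed values. Kdr, which encodes the sorted receptor, had -0.65 (536.7 on the gene-trapped and 1025 on the revertant array).

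Other ETS factors differed little. Of 21 with a probe, 18 passed both limits, with 0 at 2-fold in either direction, with a median of -0.02 and 6 above 0. Under 75th percentile scaling this median was 0.10, still below that of all genes. Ets2 had -0.50, Etv4, a target of FGF signals, 0.45, Spdef -0.20 and Elf1 -0.11. Etv1 was above background on the revertant array only, at 21.99 on the gene-trapped and 25.1 on the revertant array, close to the limits. In the authors' processed values Etv4 was past 2-fold, with a log2 difference of 1.17.

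Paralogs of the remaining members had a median of 0.01 over 8 of 10 genes above background on both arrays, and 0 were 2-fold apart. Gata1, the GATA factor of red cell precursors, had -0.77 and the LIM factor gene Lmo4 -0.65, whereas Gata6 had 0.26 and Gata4 0.21. In the authors' processed values Gata1 was past 2-fold, at -1.51. Lmo1 was above background on the gene-trapped array only, at 23.3 on the gene-trapped and 22.5 on the revertant array.

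Partners and cofactors of the complex also differed little, with a median of 0.04 over 17 genes and 0 past 2-fold. Cbfb, the partner that Runx1 needs to bind DNA firmly, had 0.50 (607.0 on the gene-trapped and 505.0 on the revertant array). Cbfa2t3h, a corepressor found in Tal1 complexes, had -0.44, with 48.5 on the gene-trapped and 95.8 on the revertant array. Ssbp3, which steadies Ldb1, had 0.20 and the E protein gene Tcf12 0.19.

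Endothelial genes reported as ETS targets had a median below 0 in every setting tried, opposite in sign to the Etv2 difference. Of 28 with a probe, 27 were above background on both arrays, 21 of these lay below 0, 3 reached 2-fold downward (beside 1.08% of all genes) and 0 upward, with a median of -0.22. The median ran from -0.72 in the authors' processed values to -0.02 under 75th percentile scaling. The 4 largest were Flt1 at -1.53, Tek at -1.31, the adhesion gene Pecam1 at -1.27 and Ramp2 at -0.75. Above 0 lay 6, the highest Eng at 0.72, close to Ramp2 in size, then Fgd5 at 0.33 and Sox7 at 0.28. Cdh5 was above background on the revertant array only, at 22.2 on the gene-trapped and 29.7 on the revertant array. In the authors' processed values 12 of 28 endothelial targets were at least 2-fold lower and 1, Eng, higher, beside the shares of all genes given above. Blood genes downstream of Tal1, Gata2 and Runx1 had a median of -0.18 over 20 of 21 genes, 17 below 0 and 1 at least 2-fold lower. This median ran from -0.72 in the authors' processed values to -0.07 under 75th percentile scaling. That gene was the erythropoietin receptor Epor at -1.08, followed by Gata1 at -0.77, the megakaryocyte integrin Itga2b at -0.72 and the stem cell factor receptor Kit at -0.54. Above 0 lay 3 blood genes, the highest Bcl11a at 0.51. In the authors' processed values 9 of 20 blood genes were at least 2-fold lower and 1, Bcl11a, higher.

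**Figure D4:**
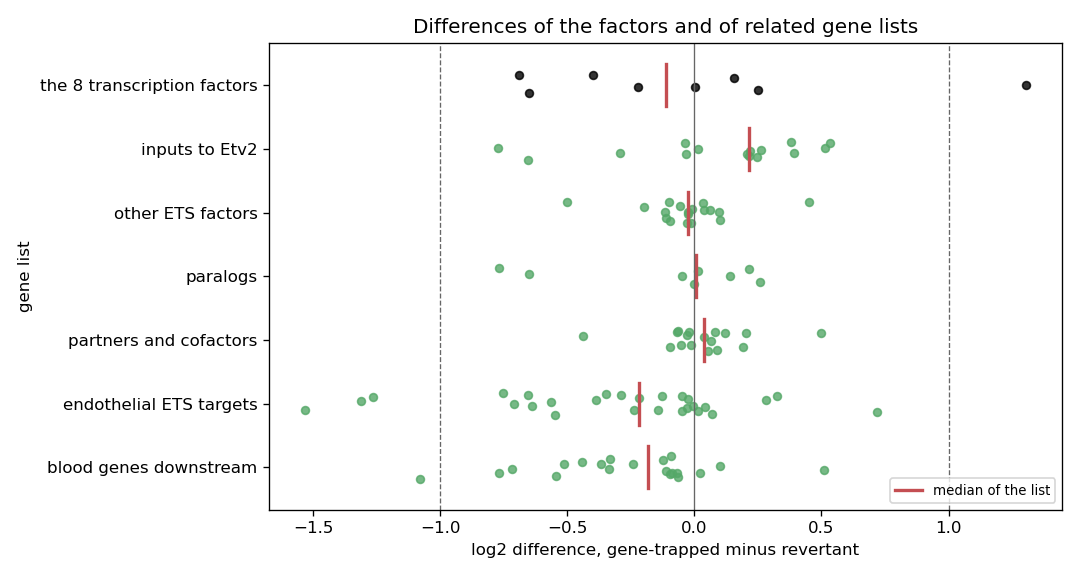
Log2 differences, gene-trapped minus revertant (horizontal), of the 8 transcription factors (black) and of 6 related gene lists (green), 1 point per gene above background on both arrays, with list medians in red and dashed lines at 2-fold. Endothelial targets and blood genes have medians of -0.22 and -0.18, against 0.21 for inputs to Etv2, all in the main setting. Some genes stand in more than 1 list, such as Kdr in the inputs and the endothelial targets. With the local background subtracted the 3 medians were -0.063, -0.071 and 0.039.

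Markers of other cells are set beside these values. In such bulk samples fewer cells of a type and less RNA per cell cannot be told apart. Sums of spot medians are not normalized, and the median probe itself had 38.6 on the gene-trapped and 47.5 on the revertant array. A somewhat lower sum on the gene-trapped array therefore does not mark out a list. Endothelial targets above background on both arrays summed to a spot median of 2908 on the gene-trapped and 5772 on the revertant array. Of 14 OP9 stromal markers 13 were above background on both arrays, with a median of -0.31. Of these, 8 lay below 0 (beside 46.6% of all genes), 5 above it, and 3 were at least 2-fold lower (beside 1.08% of all genes). Their summed spot medians were 16170 on the gene-trapped and 22960 on the revertant array. Col5a1 had -1.61, Col1a1 -1.49, Acta2 -1.30 and Col3a1 -0.79, and the stromal proteoglycan gene Dcn was above background on neither array. Among the 5 stromal markers above 0 were Fn1 at 0.36, Tagln at 0.25 and Cxcl12 at 0.20. The pan-leukocyte gene Ptprc was above background on neither array. Of 11 macrophage and mast cell markers 6 were above background on both arrays, with a median of 0.03 and summed spot medians of 254.0 on the gene-trapped and 322.5 on the revertant array. Laptm5 and Cpa3 had -0.21 each, Cd68 0.11 and Mcpt4 0.04. Cd14 passed the limit on the gene-trapped array only, at 22.53 on the gene-trapped and 23.71 on the revertant array. Mrc1, Cybb and C1qa passed the limit only on the revertant array. Their spot medians were 26.79, 26.04 and 26.65 there and 20.44, 20.68 and 21.86 on the gene-trapped array. All these values lie close to the limits, so such calls do not by themselves show a difference between the groups. Pluripotent markers had a median of 0.06 over 9 of 10 genes, with Tdgf1 at 1.88, Dppa5 at 1.21, Klf4 at -0.36 and Zfp42 at 0.12. Their spot medians summed to 3317 on the gene-trapped and 2087 on the revertant array. Tdgf1 alone had 2249 on the gene-trapped and 706.8 on the revertant array, so the higher sum leans on this gene. The part of these markers in the values of the 8 factors was not tested.

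By distance over the 2 normalized log2 signals, the genes nearest to Etv2 were Polr2l (0.14), Cdc34 (0.22), Mat2a (0.27), Dnajc9 (0.28) and Rrm2 (0.33). With 2 arrays this likeness says only that brightness and difference are alike. The trapped gene itself had a log2 difference of -0.39 (296.7 on the gene-trapped and 486.2 on the revertant array), and since the place of its probe relative to the trap is unknown, that value does not check the labels.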

How the data were processed

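The authors deposited 1 scanner file per array with the linear spot median intensity at 635 nm, not background-subtracted, joined by least squares from readings at 3 scanner gains, per the file headers. They also deposited a table of processed intensity values, linear and with a median of 25 in each column. On both arrays it followed a straight line of the scanner intensity that reaches 0 near the blank mean (at 20.1 on the gene-trapped and 22.4 on the revertant array). The sources used here give neither how it was made nor the scanner.

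Of 23473 probes, 16631 have 1 gene symbol in the platform annotation, 6842 none and 0 several. Flagged spots, among them 2 probes, were dropped before normexp and control spots after it, and the number of arrays limits the precision. Intensities were corrected with normexp (offset 50), fitted on all unflagged spots with the controls included, and quantile-normalized with limma 3.58.1 in R 4.3.3. The rest was done with Python 3.11.15, pandas 2.3.3 and numpy 2.4.6. The main setting was tested on simulated data with known folds placed on bright probes only. Changes in dim genes were not simulated. For each gene the brightest probe by mean spot median was used.

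The groups follow the sample titles. Members and the 11 lists were chosen with earlier results of these data known. The lists are not separate sets, since some genes, among them Kdr, Mesp1, Wnt3, Gata1 and Gata4, stand in more than 1. Named are the 8 members, up to 4 genes per list with the largest absolute difference above background on both arrays, list genes above background on 1 array only, the 5 genes nearest to Etv2, AU019823 and Kdr. Dcn, Ptprc, Fn1, Tagln, Cxcl12, Eng, Fgd5, Sox7, Bcl11a, Tbx20, Hand2, Isl1, Tbx5 and Myl7 were named after their values were seen. Older symbols were matched first (Tcfe2a for the E protein E2A). Of the alternatives, 11 were planned and 2, block median and blank mean subtraction, were added after seeing the data.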

Additional observations from a re-analysis of the deposited data

Results flagged for a closer look

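A column of local background around each spot, outside the comparison above, held signal at the spots of the 8 factors. Its median over the 8 spots was 50.5 on the gene-trapped and 97.7 on the revertant array, against 15.6 and 14.2 at blank spots of those arrays. This was picked out because it lies above the level of the blank spots. Over all probes the column followed spot brightness, with log2 correlations across probes of 0.956 on the gene-trapped and 0.975 on the revertant array.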

How the results depend on the processing

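No paired analysis was possible because there is only 1 array per group. Over 13 alternatives, Etv2 was past 2-fold and higher in all (1.13 to 1.54), and Tal1, Fli1, Gata2, Lmo2 and Runx1 kept their direction and stayed under 2-fold. Of the 13, the 4 on the filter and on the choice among probes cannot change a member's value. The authors' processed values and the blank mean subtraction both take off about the blank mean, so they are not separate checks. All settings use the same 2 arrays. Lyl1 passed 2-fold at -1.13 with offset 16, -1.07 without background correction, -2.07 in the authors' processed values and -2.03 with the blank mean subtracted, so that 1 member was at least 2-fold lower in each of these 4, against 0 in the main setting. A smaller offset widens differences of dim genes by construction. The Erg difference turned to -0.0064 with cyclic loess, -0.043 in the authors' processed values and -0.0044 with the blank mean subtracted. The median of the members turned to 0.0037 under 75th percentile scaling. Of the list medians near 0, other ETS factors turned to 0.098 under 75th percentile scaling, and paralogs to -0.00020 with cyclic loess and -0.0034 with block medians subtracted. Partners turned to -0.076 under median scaling, and pluripotent markers to -0.021 with the local background subtracted. Macrophage markers turned to -0.020 under median scaling, -0.023 with the local background and -0.0091 in the authors' processed values. For these turns the cause was not tested. All genes at least 2-fold higher numbered 280 with the local background, 285 in the authors' processed values, 87 with offset 16, 84 without background correction and 282 with the blank mean subtracted, against 46. Those at least 2-fold lower numbered 238 with offset 16, 227 without background correction, 571 in the authors' processed values and 490 with the blank mean subtracted, against 148. Endothelial targets at least 2-fold lower numbered 6 with offset 16, 6 without background correction and 11 with the blank mean subtracted. Blood genes so called numbered 4, 3 and 9 in the same settings and 0 with the local background subtracted, and such counts of the other lists moved by at most 2 genes. Signal near the blank level limits Erg and Lyl1. The Fli1 difference ran from -0.56 in the authors' processed values to -0.13 with the local background subtracted.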

Other observations

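Of the markers of early mesoderm all 12 were above background on both arrays, with a median of 0.44. Above 0 lay 8 (beside 53.3% of all genes), and 1 was at least 2-fold higher (beside 0.334% of all genes). Their summed spot medians, not normalized, were 3890 on the gene-trapped and 3542 on the revertant array. With the local background subtracted the median was 0.18, and 1 marker was at least 2-fold lower. Mixl1 had a log2 difference of 1.99, Lhx1 0.87, T 0.76 and Kdr -0.65. Mixl1 had a spot median of 669.3 on the gene-trapped and 180.9 on the revertant array, so the higher sum leans on this gene. Markers of paraxial and cardiac mesoderm had a median of -0.05 over 14 of 15 genes, with 5 above 0. The cardiac genes Tnnt2, Myl4 and Smarcd3 had -2.38, -0.87 and -0.78, whereas Dll3, a Notch ligand gene of paraxial mesoderm, had 0.96. Of the other cardiac genes Tbx20 had -0.70, Hand2 -0.15, Isl1 -0.09, Tbx5 -0.03 and Myl7 -0.01. Msgn1 was above background on the gene-trapped array only, at 22.8 on the gene-trapped and 24.6 on the revertant array, near both limits.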
